A study of Caenorhabditis elegans with 12 samples.

Results

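A set of 40 genes is described that were less expressed in worms carrying the spr labels, both with and without a daf-2 mutation, and that differed little between the daf-2 mutant and the wild type. They are 40 of the 46739 genes in the count table and 40 of the 15764 genes tested. RNA was sequenced from whole Caenorhabditis elegans of 4 genotypes, with 3 biological replicates each, grown at 20 °C and collected 24 h after the L4 stage, 100 worms a sample. By genotype label the groups were spr-4;spr-3;daf-2, called here the triple-labelled libraries, then daf-2, then spr-4;spr-3, called the spr double mutant, and the wild-type laboratory strain N2. All were sampled at day 2, and the labels name no alleles. The genes were chosen from group mean CPM, the counts scaled to an equal library total. The rule took a log2 difference, with 0.5 added to each mean, of at most -0.6 both in the triple-labelled libraries against daf-2 and in the spr double mutant against N2. It also took an absolute difference below 0.5 between daf-2 and N2, and a mean of 2 CPM or more in N2, and it left out names starting with col-.

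The gene daf-2 encodes the insulin/IGF-1 receptor, whose loss lengthens life through the transcription factor DAF-16. spr-3 and spr-4 encode zinc-finger proteins that were found as suppressors of a presenilin mutant and that resemble the mammalian repressor REST. The mammalian factor silences neuronal genes outside neurons.

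The genes named in the genotypes were read in every library. spr-3 had 16.5, 17.8 and 15.5 CPM in the triple-labelled libraries, against 16.3, 16.4 and 19.4 CPM in daf-2, and 8.37, 9.77 and 8.56 CPM in the spr double mutant, against 18.8, 18.1 and 16.5 CPM in N2. Its level in the triple-labelled libraries overlapped the daf-2 range and lay above every library of the spr double mutant. The groups with the spr-3 label were thus unlike in spr-3 RNA. Since no alleles are named, the level alone cannot tell whether the spr-3 part of the label holds. The log2 fold change was -0.10 ± 0.08 (± SE, as for every fold change here) in the triple-labelled libraries against daf-2 (edgeR adjusted p = 0.34). spr-4 had 65.2, 61.4 and 59.3 CPM in the triple-labelled libraries, against 67.2, 73 and 70.7 CPM in daf-2, and 60.2, 63.2 and 62.3 CPM in the spr double mutant, against 77.3, 77.6 and 79.8 CPM in N2. The daf-2 gene had 98.1, 87.7 and 89.4 CPM in the triple-labelled libraries, against 74.7, 93.8 and 89.3 CPM in daf-2, and 80.5, 87.4 and 83.9 CPM in the spr double mutant, against 95.6, 99.5 and 97 CPM in N2. spr-4 fell in the triple-labelled libraries against daf-2 (-0.21 ± 0.044, edgeR adjusted p = 0.00057) and in the spr double mutant against N2 (-0.25 ± 0.044, edgeR adjusted p = 0.00012). The daf-2 transcript was at -0.13 ± 0.064 in daf-2 against N2, which did not pass (edgeR adjusted p = 0.098). spr-3 itself was lower in the spr double mutant against N2 (-0.91 ± 0.086, edgeR adjusted p = 3.2e-08) and higher in the triple-labelled libraries than in the spr double mutant (0.83 ± 0.086, edgeR adjusted p = 6.9e-08). The cause was not tested. Every direction given below for the triple-labelled libraries is for libraries whose spr-3 level was like that of daf-2 and unlike that of the spr double mutant.

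Library totals ran from 30837773 to 48894725 counts. In single libraries the 40 genes were covered by 22 to 12837 reads each. Ribosomal RNA genes took 0.0409% to 0.0458% of the counts in the triple-labelled libraries, 0.150% to 0.181% in daf-2, 0.0368% to 0.0460% in the spr double mutant and 0.0348% to 0.0421% in N2. The part of that difference in the comparison with daf-2 was not tested. In whole animals fewer cells of a type and less RNA per cell cannot be told apart.

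Because the values that chose the genes are the differences themselves, they are a description and not a test. All 40 passed the filter on low counts, and all 40 were called lower by edgeR in both comparisons (adjusted p below 0.05), where 20.9% of the genes tested were called lower in the triple-labelled libraries against daf-2 and 21.9% in the spr double mutant against N2, and 8.68% in both. In each of the 40 genes every library with the spr label lay below every library of its comparison group, which 18.3% of the genes tested did in the triple-labelled libraries against daf-2 and 37.7% in the spr double mutant against N2. Both held in 11.6% of the genes tested. These levels were scaled by column totals alone, without the TMM scaling that the edgeR calls used. The median gene kept 49.6% of the daf-2 level in the triple-labelled libraries, with a range of 17.7% to 62.8%. It kept 51.3% of the N2 level in the spr double mutant, with a range of 29.1% to 65%. Together the 40 genes made up 388 to 426 CPM in the triple-labelled libraries, 914 to 1131 CPM in daf-2, 494 to 570.1 CPM in the spr double mutant and 936 to 1094 CPM in N2. The summed level with the spr label was thus lower in each library, and the daf-2 and N2 libraries overlapped.

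**Figure D1:**
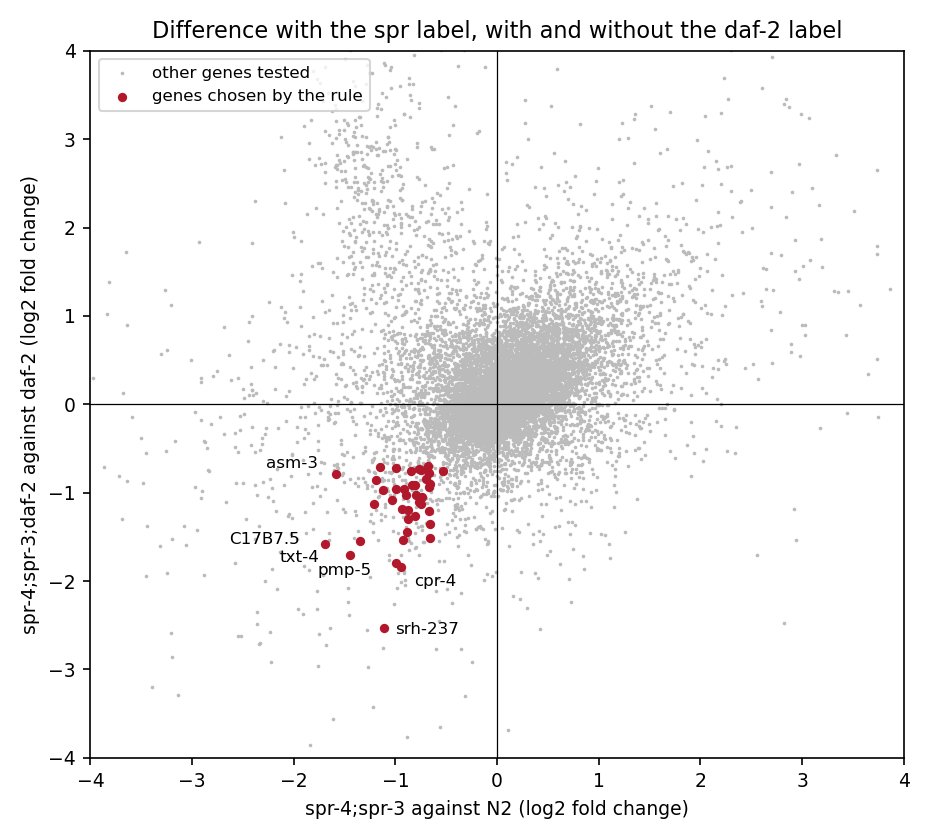
Log2 fold change of each of 15764 genes in the spr double mutant against N2 (x axis) and in the triple-labelled libraries against daf-2 (y axis), from edgeR; red points are the 40 genes chosen by the rule and grey points all others, with 69 genes outside the axes not drawn. The 40 genes sit in the lower left by construction, with srh-237 lowest on the y axis (-2.53) and C17B7.5 lowest on the x axis (-1.69).

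The label of the set, lowered with the spr mutations only, holds for part of it. In daf-2 against N2, 23 of the 40 genes were not called, 8 were called lower and 9 higher. The 17 calls stand beside 54.3% of the genes tested, with 26.9% of the genes tested lower and 27.4% higher. The largest of these differences, within the limit of the rule on mean CPM, were C05D12.4 at -0.58 ± 0.19 and ugt-63 at 0.51 ± 0.068. The counts of C05D12.4 are uncertain, since it lies within C05D12.3 on the same strand. Across the genes tested, 390 (2.47%) were called lower in both spr comparisons and not called in daf-2 against N2. The 23 genes are 5.90% of those 390 and 57.5% of the 40. A further 65 genes missed the daf-2 limit alone, and in 62 of them daf-2 was also lower than N2.

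The genes nearest the limits were close to each other. Just inside the limit on the spr double mutant lay nhr-68, Y73C8C.8 and Y40A1A.3, with rule differences of -0.61 each. Just outside lay B0035.13 (-0.59), F53F8.3 (-0.58) and Y50D4B.2 (-0.58). For the triple-labelled libraries let-4 (-0.60), fbxa-83 (-0.62) and klo-2 (-0.62) lay just inside and C55B7.3 (-0.57), Y14H12A.1 (-0.57) and fbxb-67 (-0.56) just outside. In all, 55 genes missed the limit in the spr double mutant alone, and 101 missed the limit in the triple-labelled libraries alone. In 24 of the 40 genes the N2 mean was under 10 CPM, and 2 genes, cpr-4 and hphd-1, were over 100 CPM.

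**Figure D2:**
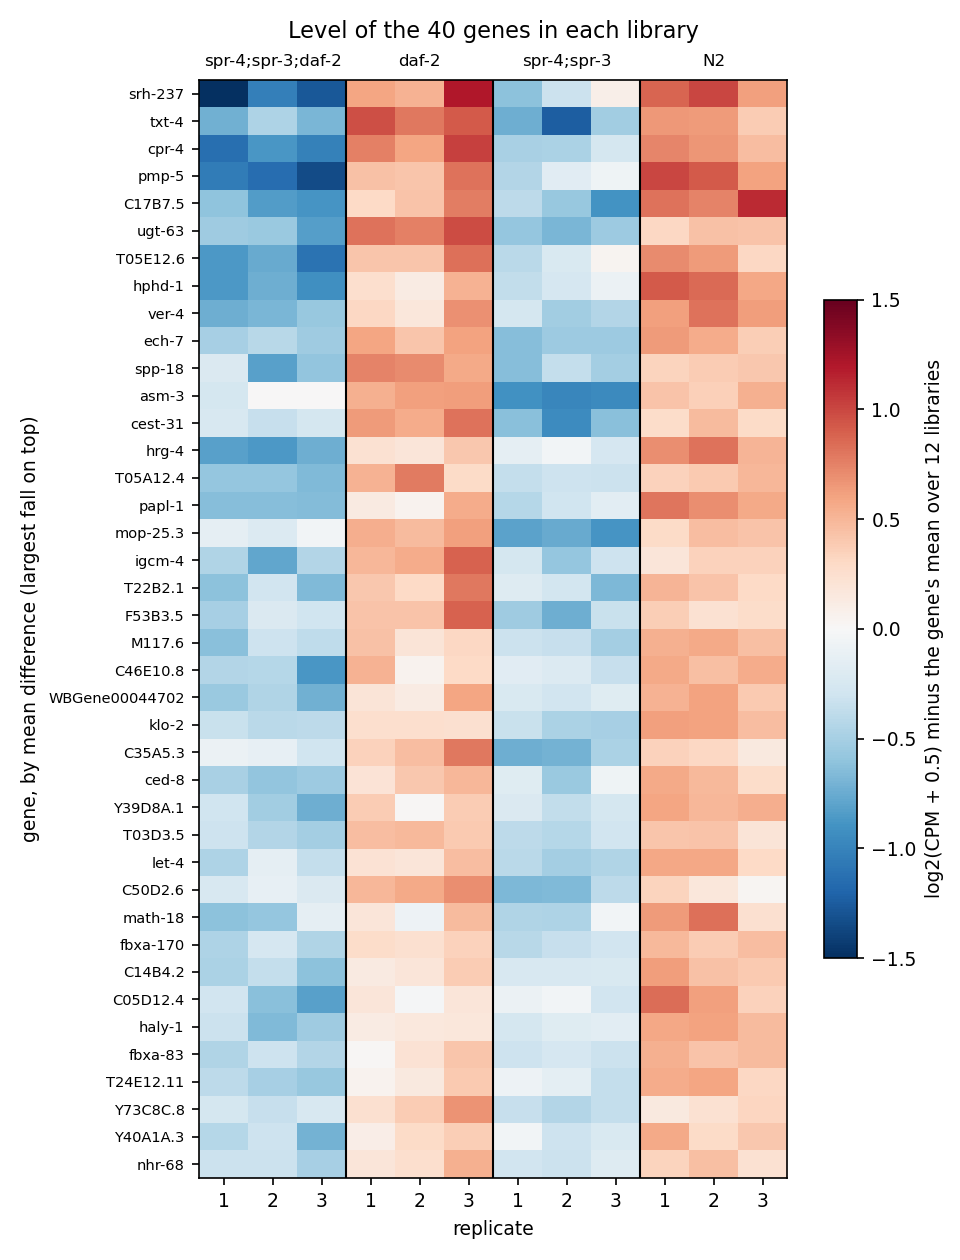
Level of each of the 40 genes (rows, ordered by the mean of the differences the rule used) in the 12 libraries (columns, replicates 1 to 3 of each group), as log2(CPM + 0.5) minus the mean of the gene over all libraries; red is above and blue below that mean. The triple-labelled and spr double mutant libraries are mostly blue and the daf-2 and N2 libraries mostly red, and daf-2 replicate 3 was the highest of its group in 31 of the 40 genes.

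Enzymes and a regulator of propionate and amino acid breakdown were among the 40. Propionate arises from the breakdown of branched-chain amino acids and odd-chain fatty acids. C. elegans degrades it by a route that needs vitamin B12 or, when that vitamin is scarce, by a shunt through the enzymes of acdh-1, ech-6, hach-1, hphd-1 and alh-8, and the nuclear hormone receptors NHR-10 and NHR-68 are known to activate acdh-1.

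hphd-1 (WBGene00012608, chromosome II, 12994354 to 12996571 in WBcel235), the shunt enzyme that oxidises hydroxypropionate, had 63.3, 69.1 and 60.5 CPM in the triple-labelled libraries, against 138, 126 and 165 CPM in daf-2, and 89.1, 96.4 and 108 CPM in the spr double mutant, against 218, 207 and 172 CPM in N2. Each library with the spr label was below each of its comparison group, and hphd-1 was at -1.18 ± 0.12 in the triple-labelled libraries against daf-2 and -0.93 ± 0.12 in the spr double mutant against N2 on the log2 scale. hphd-1 was also called lower in daf-2 than in N2 (-0.43 ± 0.11), so it belongs to the 8 genes with that difference. It no longer met the rule without daf-2 replicate 3 or without N2 replicate 3.

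nhr-68 (WBGene00003658, chromosome V, 11573440 to 11575709), the receptor gene, had 20.1, 20.1 and 17.7 CPM in the triple-labelled libraries, against 28.7, 30.2 and 36.8 CPM in daf-2, and 20.6, 20.1 and 22 CPM in the spr double mutant, against 32, 34.7 and 29.7 CPM in N2. The groups with the spr label lay between 17.7 and 22 CPM and the others between 28.7 and 36.8 CPM, without overlap. Its log2 fold changes were -0.75 ± 0.078 in the triple-labelled libraries against daf-2 and -0.53 ± 0.078 in the spr double mutant against N2, and daf-2 against N2 was not called (0.04 ± 0.075). nhr-68 did not meet the rule without daf-2 replicate 3, N2 replicate 2 or spr double mutant replicate 2. Among the 192 nuclear hormone receptor genes tested, 14 were lower and 81 higher in the triple-labelled libraries against daf-2, and 17 were lower and 59 higher in the spr double mutant against N2. Of all genes tested 26.1% and 24.6% were called higher in these comparisons.

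The other genes of these pathways were read from a list chosen after the 40 genes had been seen, so their counts are a description. acdh-1, the acyl-CoA dehydrogenase that opens the shunt, had 432, 468 and 378 CPM in the triple-labelled libraries, against 772, 723 and 1021 CPM in daf-2, and 518, 563 and 627 CPM in the spr double mutant, against 814, 792 and 677 CPM in N2. It fell in the triple-labelled libraries against daf-2 (-1.0 ± 0.14, edgeR adjusted p = 0.00031). In the spr double mutant against N2 its log2 fold change was -0.33 ± 0.14 and did not pass (edgeR adjusted p = 0.077).

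ech-6, the enoyl-CoA hydratase of the shunt, fell in both comparisons, at -0.54 ± 0.046 in the triple-labelled libraries against daf-2 and -0.21 ± 0.046 in the spr double mutant against N2. hach-1, the hydrolase, fell as well, at -0.35 ± 0.072 and -0.51 ± 0.072 in the same comparisons. alh-8, the dehydrogenase at the end of the shunt, was not called in either (-0.09 ± 0.04 and 0.09 ± 0.04). Leaving out hphd-1, which the rule chose, 3 of 4 shunt genes were lower in the triple-labelled libraries against daf-2, beside 20.9% of all genes tested, and 2 of 4 in the spr double mutant against N2, beside 21.9%. The medians of these 4 genes were -0.45 and -0.27, beside medians of 0.02 over all genes in both comparisons.

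Of the 6 genes of the route that needs vitamin B12, 1 was lower and 2 were higher in the triple-labelled libraries against daf-2, and 0 were lower and 4 higher in the spr double mutant against N2. pccb-1, a propionyl-CoA carboxylase subunit gene, rose in both (0.13 ± 0.041 and 0.33 ± 0.041). Methionine cycle genes were lower in 4 of 4 in the triple-labelled libraries against daf-2, beside 20.9% of all genes tested. They were lower in 3 of 4 in the spr double mutant against N2, beside 21.9%. Their medians were -0.38 and -0.22. In the spr double mutant against N2 metr-1 (-0.14 ± 0.047) and mtrr-1 (-0.29 ± 0.042) fell little, and metr-1 was higher in daf-2 than in N2 (0.19 ± 0.047). sams-1, which makes S-adenosylmethionine, was lowest of them, at -1.5 ± 0.14 and -0.91 ± 0.13, and it was lower in daf-2 than in N2 too (-0.99 ± 0.13).

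nhr-10 rose in the triple-labelled libraries against daf-2 (0.33 ± 0.06) and was at 0.10 ± 0.062 in the spr double mutant against N2, which did not pass (edgeR adjusted p = 0.21). nhr-114, a receptor gene of methionine metabolism, fell by more than nhr-68 did in the same comparisons (-1.41 ± 0.12 and -1.81 ± 0.11). It was lower in daf-2 than in N2 (-1.13 ± 0.1) and did not meet the rule for that reason.

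**Figure D3:**
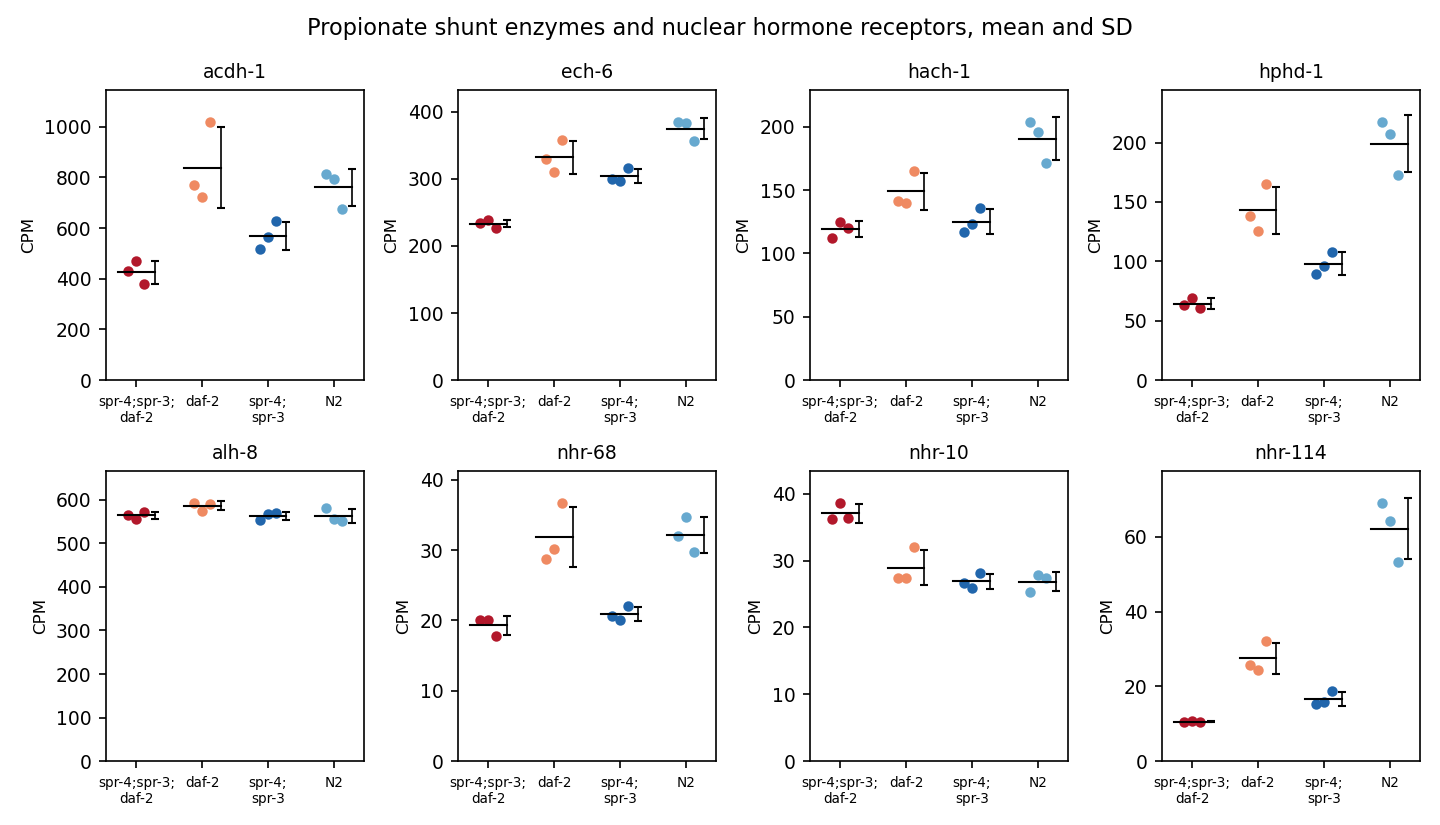
CPM of the 5 propionate shunt genes and of 3 nuclear hormone receptor genes in each library (points), with the group mean (line) and SD (bar), n = 3 a group, on axes that start at 0. hphd-1 and nhr-68 met the rule, while nhr-114, acdh-1, ech-6 and hach-1 did not. In each of these genes every library with the spr label is below every library of its comparison group. acdh-1 was nevertheless not called in the spr double mutant against N2. alh-8 lies between 552 and 594 CPM in all groups.

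ech-7 (WBGene00001156, chromosome I, 14367616 to 14369773), another gene of the enoyl-CoA hydratase family, had 15.7, 16.7 and 15.3 CPM in the triple-labelled libraries, against 34.1, 30.1 and 34.3 CPM in daf-2, and 14.3, 15.2 and 15.2 CPM in the spr double mutant, against 35.1, 33.1 and 29.2 CPM in N2. The levels with the spr label lay between 14.3 and 16.7 CPM whether or not the daf-2 label was present. ech-7 was at -1.08 ± 0.07 in the triple-labelled libraries against daf-2 and -1.03 ± 0.072 in the spr double mutant against N2. Of the 10 ech genes tested, 3 were lower and 2 higher in the triple-labelled libraries against daf-2, and 3 lower and 4 higher in the spr double mutant against N2.

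haly-1 (WBGene00009813, chromosome X, 10893567 to 10896598), the histidine ammonia-lyase that opens histidine breakdown, had 15.9, 12.5 and 13.6 CPM in the triple-labelled libraries, against 21.9, 22.4 and 22.6 CPM in daf-2, and 16.6, 17.6 and 17.9 CPM in the spr double mutant, against 30.2, 30.7 and 28.1 CPM in N2. Its differences were -0.70 ± 0.073 in the triple-labelled libraries against daf-2 and -0.68 ± 0.071 in the spr double mutant against N2, and it was lower in daf-2 than in N2 (-0.36 ± 0.069). F47B10.3 overlaps it by 111 bases on the opposite strand and had under 1 CPM in every group.

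The 40 genes also held single genes of a protease, a sphingomyelinase, a saposin-like protein and a carboxylesterase, grouped here for reading after they had been chosen. cpr-4 (WBGene00000784, chromosome V, 6614674 to 6615851) encodes a cathepsin B-like protease and was the most abundant of the 40 per length, at 216 CPM per kb of exon in N2. It had 71.7, 86 and 77.7 CPM in the triple-labelled libraries, against 267, 238 and 321 CPM in daf-2, and 112, 113 and 131 CPM in the spr double mutant, against 263, 251 and 217 CPM in N2. The lowest level was in the triple-labelled libraries, and no library of one group overlapped its comparison group. cpr-4 was at -1.84 ± 0.12 in the triple-labelled libraries against daf-2 and -0.94 ± 0.12 in the spr double mutant against N2. Among 8 cpr genes tested, 4 were lower and 3 higher in the triple-labelled libraries against daf-2, and 6 were lower and 1 higher in the spr double mutant against N2. These counts include cpr-4, and 20.9% and 21.9% of all genes tested were called lower.

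asm-3 (WBGene00000213, chromosome IV, 520214 to 523809), an acid sphingomyelinase gene, had 2.6, 3.24 and 3.24 CPM in the triple-labelled libraries, against 4.91, 5.2 and 5.27 CPM in daf-2, and 1.49, 1.39 and 1.42 CPM in the spr double mutant, against 4.5, 4.29 and 4.89 CPM in N2. The spr double mutant held the lowest level here, and the triple-labelled libraries lay between it and the groups without the spr label. asm-3 was at -0.79 ± 0.12 in the triple-labelled libraries against daf-2 and -1.58 ± 0.13 in the spr double mutant against N2, and the 2 other asm genes tested rose in the spr double mutant against N2.

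spp-18 (WBGene00005003, chromosome IV, 9593712 to 9594413), a saposin-like gene, had 14.4, 9.34 and 11 CPM in the triple-labelled libraries, against 28.6, 27.9 and 25.34 CPM in daf-2, and 10.6, 13 and 11.7 CPM in the spr double mutant, against 21.3, 22.1 and 22.5 CPM in N2. It was at -1.26 ± 0.12 in the triple-labelled libraries against daf-2 and -0.80 ± 0.12 in the spr double mutant against N2. It was the single gene of the 40 in the list of innate immune effectors, in which 8 of 39 genes were lower and 16 higher in the triple-labelled libraries against daf-2, and 7 lower and 24 higher in the spr double mutant against N2. Of 25 spp genes, 5 were lower and 11 higher in the triple-labelled libraries against daf-2.

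cest-31, a carboxylesterase gene, had 2.32, 2.11 and 2.27 CPM in the triple-labelled libraries, against 4.66, 4.37 and 5.32 CPM in daf-2, and 1.65, 1.22 and 1.65 CPM in the spr double mutant, against 3.5, 4.11 and 3.55 CPM in N2. klo-2, a homologue of the mammalian Klotho gene, had 4.16, 3.96 and 3.99 CPM in the triple-labelled libraries, against 6.51, 6.5 and 6.47 CPM in daf-2, and 4.18, 3.74 and 3.67 CPM in the spr double mutant, against 8.53, 8.46 and 7.61 CPM in N2. Neither gene exceeded 10 CPM, and their log2 fold changes were -1.13 ± 0.13 and -0.72 ± 0.095 in the triple-labelled libraries against daf-2, and -1.21 ± 0.14 and -1.0 ± 0.096 in the spr double mutant against N2. papl-1 (WBGene00008936, chromosome V, 12757565 to 12759760) lay between 14.5 and 14.7 CPM in the triple-labelled libraries, and had 25.4, 24 and 34 CPM in daf-2. It had 16.9, 18.7 and 20.5 CPM in the spr double mutant, against 40.5, 37.7 and 34.4 CPM in N2. Its groups did not overlap in either comparison.

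Transport and conjugation genes showed some of the larger differences. pmp-5 (WBGene00004062, chromosome V, 6662191 to 6665813), an ABC transporter gene, had 20.8, 19.5 and 16.9 CPM in the triple-labelled libraries, against 59.3, 58.3 and 77 CPM in daf-2, and 31.9, 38.7 and 41.6 CPM in the spr double mutant, against 88, 83.1 and 66.6 CPM in N2. The triple-labelled libraries kept 29.5% of the daf-2 level and the spr double mutant 47.2% of the N2 level. Its log2 fold changes were -1.79 ± 0.15 in the triple-labelled libraries against daf-2 and -0.99 ± 0.15 in the spr double mutant against N2.

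ugt-63 (WBGene00015449, chromosome V, 5108180 to 5110772), a UDP-glucuronosyltransferase gene, had 19.3, 18.9 and 15.6 CPM in the triple-labelled libraries, against 49.6, 47.9 and 55.6 CPM in daf-2, and 18.5, 17.3 and 19 CPM in the spr double mutant, against 35, 38.1 and 38.1 CPM in N2. The triple-labelled and spr double mutant libraries overlapped, and every daf-2 library was above every N2 library. ugt-63 was at -1.54 ± 0.072 in the triple-labelled libraries against daf-2 and -0.93 ± 0.074 in the spr double mutant against N2. Of 63 ugt genes tested, 12 were lower and 32 higher in the triple-labelled libraries against daf-2, and 11 lower and 29 higher in the spr double mutant against N2, so ugt-63 stood in the smaller direction of its family.

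hrg-4 (WBGene00009493, chromosome IV, 11030143 to 11030993), a haem importer gene of the intestine, had 0.992, 0.937 and 1.07 CPM in the triple-labelled libraries, against 2.58, 2.47 and 2.97 CPM in daf-2, and 1.88, 2.04 and 1.71 CPM in the spr double mutant, against 3.74, 4.11 and 3.24 CPM in N2. It was lower with either label, including daf-2 against N2 (-0.41 ± 0.13), and its lowest level was in the triple-labelled libraries. Its log2 fold changes with the spr label were -1.44 ± 0.16 in the triple-labelled libraries against daf-2 and -0.88 ± 0.14 in the spr double mutant against N2.

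**Figure D4:**
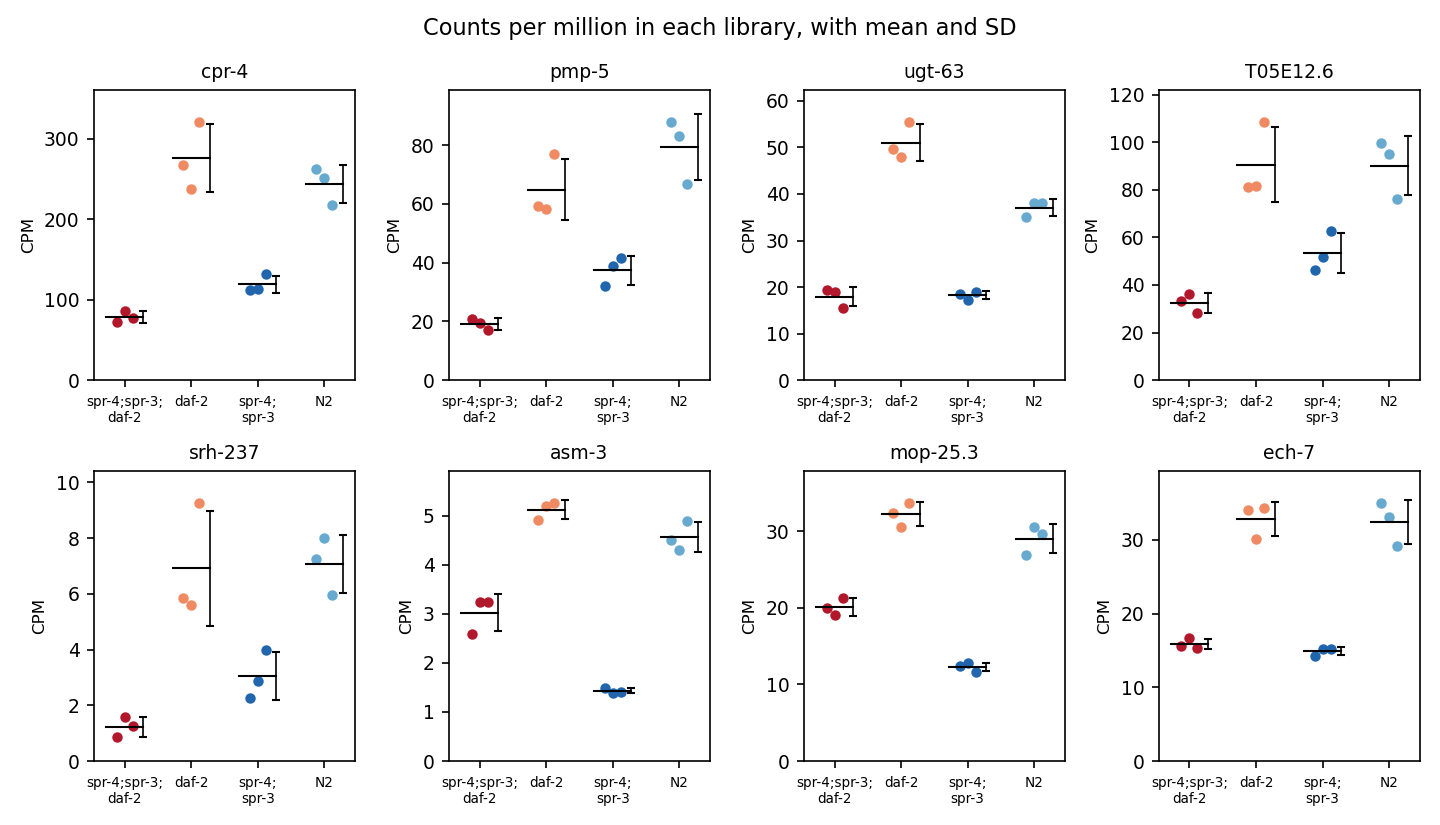
CPM of 8 of the 40 genes in each library (points), with the group mean (line) and SD (bar), n = 3 a group, on axes that start at 0. cpr-4, pmp-5, T05E12.6 and srh-237 are lowest in the triple-labelled libraries, asm-3 and mop-25.3 are lowest in the spr double mutant, and ugt-63 and ech-7 are close in these groups.

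Genes of signalling, the cell surface and cell death came next. srh-237 (WBGene00005444, chromosome V, 17090379 to 17091714), a chemoreceptor gene, had 0.851, 1.58 and 1.25 CPM in the triple-labelled libraries, against 5.86, 5.61 and 9.28 CPM in daf-2, and 2.27, 2.89 and 3.99 CPM in the spr double mutant, against 7.24, 8 and 5.96 CPM in N2. It showed the largest difference of the 40 in the triple-labelled libraries against daf-2, where 17.7% of the level was left. srh-237 was at -2.53 ± 0.27 in the triple-labelled libraries against daf-2 and -1.11 ± 0.23 in the spr double mutant against N2. Of the 11 srh genes tested it was the single one called lower in the spr double mutant against N2, where 0 were higher. In the triple-labelled libraries against daf-2, 2 srh genes were lower and 4 higher.

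mop-25.3 (WBGene00020858, chromosome I, 10881549 to 10892194) encodes a protein of the MO25 family, scaffolds of kinase complexes, and had 19.97, 19 and 21.3 CPM in the triple-labelled libraries, against 32.3, 30.6 and 33.7 CPM in daf-2, and 12.4, 12.8 and 11.7 CPM in the spr double mutant, against 26.9, 30.5 and 29.7 CPM in N2. mop-25.3 was at -0.71 ± 0.063 in the triple-labelled libraries against daf-2 and -1.15 ± 0.067 in the spr double mutant against N2. lrk-1, a leucine-rich repeat kinase gene, overlaps its whole length on the opposite strand. lrk-1 was lower too, at -0.27 ± 0.062 in the triple-labelled libraries against daf-2 and -0.28 ± 0.062 in the spr double mutant against N2. The strand setting of the counting is not given in the sources used here, so reads of one gene counted for the other cannot be told apart.

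ver-4, a receptor tyrosine kinase gene related to the VEGF receptors, had 0.662, 0.696 and 0.799 CPM in the triple-labelled libraries, against 1.9, 1.67 and 2.61 CPM in daf-2, and 1.1, 0.85 and 0.926 CPM in the spr double mutant, against 2.45, 2.89 and 2.47 CPM in N2. igcm-4, of the immunoglobulin-like cell adhesion family, had 3.12, 2.38 and 3.15 CPM in the triple-labelled libraries, against 6.46, 6.73 and 8.63 CPM in daf-2, and 3.6, 2.8 and 3.47 CPM in the spr double mutant, against 5.07, 5.79 and 5.74 CPM in N2. Both were low, and both had separate groups in each comparison. ver-4 was at -1.54 ± 0.2 in the triple-labelled libraries against daf-2 and -1.35 ± 0.19 in the spr double mutant against N2, and igcm-4 at -1.36 ± 0.13 in the triple-labelled libraries against daf-2 and -0.66 ± 0.13 in the spr double mutant against N2. ced-8, whose protein exposes phosphatidylserine on dying cells, was at -1.13 ± 0.15 in the triple-labelled libraries against daf-2 and -0.74 ± 0.15 in the spr double mutant against N2. let-4, which encodes a leucine-rich repeat protein of apical matrices, was at -0.85 ± 0.18 in the triple-labelled libraries against daf-2 and -1.19 ± 0.18 in the spr double mutant against N2. ced-8 and let-4 each overlap a coding gene on the opposite strand, F08F1.4 and C44H4.4. F08F1.4 was higher in the spr double mutant against N2 (0.47 ± 0.089) while ced-8 was lower there. C44H4.4 covers all 2989 bases of let-4 and averaged 18.2 CPM in the triple-labelled libraries, against 20.3 CPM in daf-2, and 18.1 CPM in the spr double mutant, against 21.97 CPM in N2. let-4 averaged 1.08 CPM in the triple-labelled libraries, against 1.90 CPM in daf-2, and 0.926 CPM in the spr double mutant, against 2.25 CPM in N2. C44H4.4 was lower in both comparisons, at -0.18 ± 0.063 and -0.19 ± 0.063, so for let-4 too reads of the overlapping gene cannot be told apart.

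The set also held fbxa-170 and fbxa-83, with F-box domains as in substrate receptors of ubiquitin ligases, and math-18, with a MATH domain. fbxa-170 had 6.92, 8.08 and 6.99 CPM in the triple-labelled libraries, against 11.9, 11.6 and 12.5 CPM in daf-2, and 7.13, 7.56 and 7.9 CPM in the spr double mutant, against 13.9, 12.8 and 13.6 CPM in N2. Its log2 fold change was nearly equal in both comparisons, at -0.74 ± 0.082 in the triple-labelled libraries against daf-2 and -0.74 ± 0.082 in the spr double mutant against N2. fbxa-83 was at -0.73 ± 0.12 in the triple-labelled libraries against daf-2 and -0.77 ± 0.11 in the spr double mutant against N2. fbxa was the one family with more than 1 of the 40 genes. Of its 121 genes tested, 14 were lower and 41 higher in the triple-labelled libraries against daf-2, and 17 lower and 24 higher in the spr double mutant against N2. Of 21 math genes, 7 were lower and 0 higher in the triple-labelled libraries against daf-2 and 13 lower and 2 higher in the spr double mutant against N2. These counts include math-18, which the rule chose, and 20.9% and 21.9% of all genes tested were called lower. math-18 was at -0.97 ± 0.26 in the triple-labelled libraries against daf-2 and -1.12 ± 0.25 in the spr double mutant against N2.

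txt-4 (WBGene00019368, chromosome IV, 1510564 to 1515457) had 2.6, 3.21 and 2.7 CPM in the triple-labelled libraries, against 9.54, 8.39 and 9.19 CPM in daf-2, and 2.59, 1.67 and 3.07 CPM in the spr double mutant, against 7.53, 7.5 and 6.16 CPM in N2. It kept 31.4% of the daf-2 level and 34.6% of the N2 level, and its log2 fold changes were -1.71 ± 0.14 in the triple-labelled libraries against daf-2 and -1.44 ± 0.15 in the spr double mutant against N2. C17B7.5 (WBGene00015879, chromosome V, 3333634 to 3339076) had 1.56, 1.26 and 1.2 CPM in the triple-labelled libraries, against 3.36, 3.71 and 4.82 CPM in daf-2, and 1.88, 1.61 and 1.19 CPM in the spr double mutant, against 5.01, 4.76 and 6.29 CPM in N2. It was the lowest of the 40 in the spr double mutant against N2, with 29.1% of the level left, and its log2 fold changes were -1.58 ± 0.18 in the triple-labelled libraries against daf-2 and -1.69 ± 0.17 in the spr double mutant against N2.

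Of the 40 genes, 16 carry a sequence name alone and 1, WBGene00044702, is annotated as a pseudogene on chromosome X. T05E12.6 was the most abundant of the sequence-named genes, and T05A12.4 had 15.8, 15.8 and 14.9 CPM in the triple-labelled libraries, against 34.6, 41.5 and 29.1 CPM in daf-2, and 18.5, 19.1 and 19 CPM in the spr double mutant, against 30.4, 31.4 and 34 CPM in N2. T05A12.4 was at -1.21 ± 0.1 in the triple-labelled libraries against daf-2 and -0.67 ± 0.1 in the spr double mutant against N2. T22B2.1 and F53B3.5, both on chromosome X, were at -1.30 ± 0.18 and -1.03 ± 0.12 in the triple-labelled libraries against daf-2, and -0.88 ± 0.18 and -0.80 ± 0.13 in the spr double mutant against N2. C35A5.3 and C50D2.6 were at -0.76 ± 0.096 and -0.91 ± 0.12 in the triple-labelled libraries against daf-2, and -0.84 ± 0.1 and -0.80 ± 0.14 in the spr double mutant against N2. The pseudogene was at -1.11 ± 0.15 in the triple-labelled libraries against daf-2 and -0.77 ± 0.14 in the spr double mutant against N2. M117.6, C46E10.8, Y39D8A.1, T03D3.5, C14B4.2, C05D12.4, T24E12.11, Y73C8C.8 and Y40A1A.3 complete the set, with log2 fold changes of -1.20 to -0.77 in the triple-labelled libraries against daf-2 and -0.99 to -0.66 in the spr double mutant against N2. Of these C14B4.2 was the most abundant, with 8.41, 9.1 and 7.59 CPM in the triple-labelled libraries, against 13.1, 13.5 and 15.5 CPM in daf-2, and 9.92, 9.97 and 10.04 CPM in the spr double mutant, against 18.6, 16.2 and 15.7 CPM in N2. C05D12.4 lies wholly within C05D12.3 on the same strand, so its counts are uncertain. C05D12.3 averaged 20 CPM in the triple-labelled libraries, 20.2 CPM in daf-2, 33.2 CPM in the spr double mutant and 51.2 CPM in N2. Its log2 fold changes were -0.05 ± 0.086 in the triple-labelled libraries against daf-2 and -0.54 ± 0.079 in the spr double mutant against N2.

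Some of the 40 genes and their neighbours lay close together. T05E12.6 (WBGene00011487, chromosome V, 17085002 to 17089442, minus strand) and srh-237 (plus strand) are divergent, with start sites 937 bases apart. T05E12.6 had 33.3, 36 and 28 CPM in the triple-labelled libraries, against 81.3, 81.6 and 109 CPM in daf-2, and 46.1, 51.9 and 62.6 CPM in the spr double mutant, against 99.6, 95 and 75.9 CPM in N2. Both genes were lowest in the triple-labelled libraries, and T05E12.6 was at -1.51 ± 0.17 in the triple-labelled libraries against daf-2 and -0.66 ± 0.16 in the spr double mutant against N2. On the other side of srh-237, ZK218.1 was lower in both comparisons as well, at -2.70 ± 0.47 and -2.33 ± 0.4. Its mean of 0.605 CPM in N2 was under the minimum of the rule. T05E12.3, on the far side of T05E12.6, was at 0.18 ± 0.1 and 0.33 ± 0.098, which was higher in the spr double mutant.

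pmp-5 and cest-31 lie 8453 bases apart on chromosome V and are also divergent. cest-28, between them, was lower in both comparisons (-1.19 ± 0.33 and -1.52 ± 0.24), but it was lower in daf-2 than in N2 too (-1.49 ± 0.24). cest-34, next to cest-31, was higher in both (0.79 ± 0.18 and 1.21 ± 0.22). cpr-4 lies on the same chromosome, starting at 6614674. No other pair of the 40 had start coordinates within 20 kb.

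By chromosome, 14 of the 40 genes (35%) lay on V, which holds 20.3% of the genes tested, and 10 (25%) on X, which holds 14.2%. Chromosomes I and III held 2 and 1 of the 40, beside 16% and 15.3% of the genes tested. The median exon length was 1540.5 bases, beside 1333 bases over the genes tested. Among the 40, 39 are protein-coding, and 9 overlap another coding gene, 7 of them one on the opposite strand. Of the 10 overlapping genes, 2 were called lower in both comparisons, lrk-1 and C44H4.4.

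The triple-labelled libraries were also compared with the spr double mutant, a contrast that the rule did not name. These groups differ in the daf-2 label and also in the spr-3 level (0.83 ± 0.086), which cannot be told apart here. On the rule's scale this contrast is the sum of the differences the rule limits (the triple-labelled libraries against daf-2, plus daf-2 against N2, minus the spr double mutant against N2). Its calls are therefore not independent of the choice of genes and are a description. Of the 40 genes, 15 were lower and 5 higher, and 20 were not called. Over all genes tested 49.3% were called, 23.5% lower and 25.8% higher. The median log2 fold change of the 40 was -0.27, beside 0.01 over all genes. The largest falls were srh-237 (-1.40 ± 0.3, edgeR adjusted p = 0.0018), pmp-5 (-1.04 ± 0.16), hrg-4 (-0.97 ± 0.17) and T05E12.6 (-0.80 ± 0.17). C05D12.4 (-0.71 ± 0.24, edgeR adjusted p = 0.019) and hphd-1 (-0.68 ± 0.12, edgeR adjusted p = 0.0012) followed, then cpr-4 (-0.67 ± 0.12). C05D12.3, the gene that holds C05D12.4, was also lower on average in the triple-labelled libraries (20 CPM) than in the spr double mutant (33.2 CPM).

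Higher in the triple-labelled libraries than in the spr double mutant were asm-3 (1.01 ± 0.14, edgeR adjusted p = 4.7e-06), mop-25.3 (0.64 ± 0.069), cest-31 (0.50 ± 0.15), C35A5.3 (0.41 ± 0.1) and C50D2.6 (0.38 ± 0.14). The call of cest-31 was lost without spr double mutant replicate 2 (edgeR adjusted p = 0.0749). C50D2.6, C05D12.4 and T24E12.11 lost theirs without spr double mutant replicate 1, without its replicate 2 and without triple-labelled replicate 2. Leaving out triple-labelled replicate 3 ended the calls of C05D12.4, C46E10.8, T05A12.4, T24E12.11, WBGene00044702 and ced-8, and leaving out spr double mutant replicate 3 those of C46E10.8, WBGene00044702 and ced-8. ced-8 lost its call in 12 and C46E10.8 in 10 of the 20 alternatives run, among them those without N2 replicate 2. The other 12 calls held in all 20. ech-7 (0.02 ± 0.075) and ugt-63 (-0.10 ± 0.077) did not pass.

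The difference between the spr effects with and without the daf-2 label was tested as an interaction in the same model. Both of its parts entered the rule, so these calls too are not independent of the choice of genes, although the rule set no sign for their difference. spr-3 itself had an interaction of 0.81 ± 0.12 (edgeR adjusted p = 2.7e-05), so the daf-2 label and the spr-3 level cannot be told apart here. Of the 40 genes, 7 were more lowered in daf-2 animals, 2 were less lowered there, and 31 were not called. Of the genes tested 28.7% were called, 14.6% in the negative and 14.1% in the positive direction. The interaction was -1.42 ± 0.37 for srh-237 (edgeR adjusted p = 0.012) and -0.90 ± 0.17 for cpr-4 (edgeR adjusted p = 0.0034). T05E12.6 was at -0.85 ± 0.24 (edgeR adjusted p = 0.027) and pmp-5 at -0.80 ± 0.21 (edgeR adjusted p = 0.021). When triple-labelled replicate 3 was left out, pmp-5 (edgeR adjusted p = 0.0515) and T05E12.6 (edgeR adjusted p = 0.0601) no longer passed. The same held for T05E12.6 when triple-labelled replicate 1 (edgeR adjusted p = 0.0521) or spr double mutant replicate 3 (edgeR adjusted p = 0.0510) was left out. With a replicate block the values were 0.0528 for pmp-5 and 0.0636 for T05E12.6 (edgeR adjusted p).

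igcm-4 (-0.70 ± 0.19), ugt-63 (-0.61 ± 0.1) and T05A12.4 (-0.55 ± 0.15) completed those more lowered in daf-2 animals. asm-3 (0.79 ± 0.18, edgeR adjusted p = 0.0024) and mop-25.3 (0.44 ± 0.092, edgeR adjusted p = 0.0013) were less lowered there. Of the pathway genes outside the 40, interactions below 0 were called in 3 of 4 shunt genes, 4 of 6 genes of the route that needs vitamin B12, 2 of 4 methionine cycle genes and 0 of 2 receptor genes, and none above 0 were called. acdh-1 had an interaction of -0.68 ± 0.19 (edgeR adjusted p = 0.027), ech-6 of -0.33 ± 0.065 (edgeR adjusted p = 0.0007) and alh-8 of -0.18 ± 0.056 (edgeR adjusted p = 0.02). In the route that needs vitamin B12 they were pccb-1 (-0.20 ± 0.058), mmcm-1 (-0.22 ± 0.053), mmaa-1 (-0.19 ± 0.054) and mmab-1 (-0.24 ± 0.074), and in the methionine cycle metr-1 (-0.28 ± 0.067) and ahcy-1 (-0.26 ± 0.064). ech-7 (-0.05 ± 0.1), haly-1 (-0.02 ± 0.1), papl-1 (-0.04 ± 0.14) and fbxa-170 (0.00 ± 0.12) had values near 0 that did not pass.

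**Figure D5:**
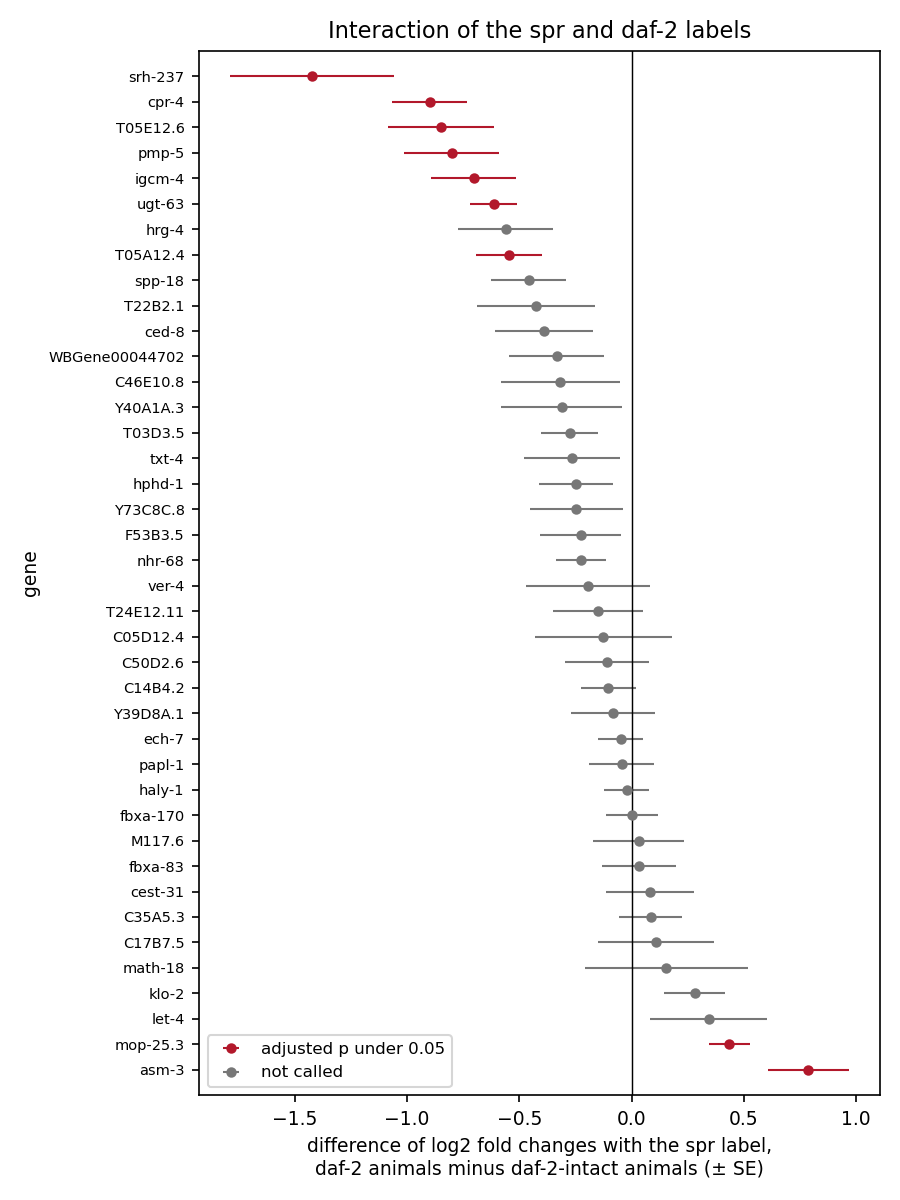
Interaction of each of the 40 genes, the log2 fold change of the triple-labelled libraries against daf-2 minus that of the spr double mutant against N2, with its SE; red marks an edgeR adjusted p below 0.05. The 7 genes called to the left run from srh-237 (-1.42) to T05A12.4 (-0.55), with hrg-4 among them but not called, and mop-25.3 (0.44) and asm-3 (0.79) were called to the right.

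Markers of tissues moved with the comparisons to different degrees, and their part in the 40 genes was not tested. Of 20 intestinal marker genes, 6 were lower and 6 higher in the triple-labelled libraries against daf-2, and 9 lower and 6 higher in the spr double mutant against N2. Their summed level was 72567 to 77314 CPM in the triple-labelled libraries, 69543 to 75690.3 CPM in daf-2, 80691.5 to 82576 CPM in the spr double mutant and 59586 to 67282 CPM in N2. Of 32 sperm genes, 1 was lower and 28 higher in the triple-labelled libraries against daf-2, and 21 lower and 4 higher in the spr double mutant against N2, with the larger number in opposite directions. Their summed level was 201.1 to 227 CPM in the triple-labelled libraries, 164 to 169.7 CPM in daf-2, 236.9 to 252 CPM in the spr double mutant and 321 to 391 CPM in N2. The median log2 fold change of the sperm genes was 2.51 in the triple-labelled libraries against daf-2. It was -1.25 in the spr double mutant against N2 and -3.98 in daf-2 against N2.

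Of 23 oocyte and eggshell genes, 21 were lower and 0 higher in the triple-labelled libraries against daf-2, and 10 lower and 5 higher in the spr double mutant against N2. Their summed level was 14706 to 15421 CPM in the triple-labelled libraries, 17625 to 18396 CPM in daf-2, 17572 to 18053 CPM in the spr double mutant and 17794 to 17981 CPM in N2. The furrow and other collagens outside the col- names had 4 of 20 lower and 2 higher in the triple-labelled libraries against daf-2, and 17 lower and 2 higher in the spr double mutant against N2 (median -2.25). Their summed level was 54.7 to 67.1 CPM in the triple-labelled libraries, 62.8 to 75.9 CPM in daf-2, 83.3 to 103.98 CPM in the spr double mutant and 266 to 368 CPM in N2. Apical matrix and moulting genes had 12 of 34 lower and 12 higher in the triple-labelled libraries against daf-2, and 19 lower and 9 higher in the spr double mutant against N2. Hypodermis and seam genes had 3 of 16 lower and 4 higher in the triple-labelled libraries against daf-2, and 8 lower and 3 higher in the spr double mutant against N2 (median -0.64).

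Pharynx genes had 1 of 17 lower and 7 higher in the triple-labelled libraries against daf-2, and 6 lower and 1 higher in the spr double mutant against N2. Their summed level was 154 to 173 CPM in the triple-labelled libraries, 145 to 149.6 CPM in daf-2, 170.2 to 186 CPM in the spr double mutant and 240.2 to 252 CPM in N2. Body wall muscle genes had 0 of 18 lower and 5 higher in the triple-labelled libraries against daf-2, and 2 lower and 1 higher in the spr double mutant against N2. Collagen processing genes had 3 of 17 lower and 6 higher in the triple-labelled libraries against daf-2, and 2 lower and 6 higher in the spr double mutant against N2. Genes of protein folding in the endoplasmic reticulum had 7 of 20 lower and 3 higher in the triple-labelled libraries against daf-2, and 10 lower and 2 higher in the spr double mutant against N2. None of the genes in these tissue and process lists had 0 reads over all libraries, and none of them is among the 40.

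Of 22 neuronal genes, 2 were lower and 15 higher in the triple-labelled libraries against daf-2, and 3 lower and 7 higher in the spr double mutant against N2. A list of 14 genes held spr suppressors and CoREST complex genes, and also amx-1, amx-3, sel-12 and hop-1. Of these 14, 8 were lower and 0 higher in the triple-labelled libraries against daf-2, and 9 lower and 1 higher in the spr double mutant against N2, with medians of -0.14 and -0.17. Of all genes tested 20.9% and 21.9% were called lower. The counts include spr-4, lower in both comparisons, and spr-3, lower in the spr double mutant against N2, both named in the genotypes. None of the 40 genes is in either list.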

How the data were processed

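RNA of 12 libraries was sequenced as pairs of 75 bp from 500 ng of total RNA with a stranded mRNA kit, per the labels' protocols. The authors deposited raw gene counts, as whole numbers. STAR and featureCounts 1.5.1 were used with WBcel235, per the submitters' processing notes. The sources used here do not give the strand setting or the handling of reads that match several places. Positions came from the WBcel235 annotation, release 115. All columns were assigned to samples by name, and the table has 0 columns without a sample.

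CPM were computed from column totals for the rule. Tests used edgeR 4.0.16 in R 4.3.3 on genes kept by filterByExpr (minimum count 10), with TMM scaling and 1 robust quasi-likelihood model over the 4 groups (8 residual degrees of freedom), two-sided, with Benjamini-Hochberg adjustment over 15764 genes and calls below 0.05. SE was taken as the size of the log2 fold change over the root of F. The model was tested on simulated counts. Alternatives were other scalings and filters, DESeq2 1.42.0, limma-voom (limma 3.58.1), a replicate block, fits of the compared groups, other limits of the rule, and leaving out each library. Within groups, pairs of libraries gave a chi-square of 3.40 to 16.5 per degree of freedom, above counting error. P-values weigh each difference against the spread between samples within groups, estimated over the 4 groups together. The submitters call the 3 samples of a group biological replicates.

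The 40 genes and the gene lists were chosen with earlier results of these data known. Named genes were those with the 20 lowest mean differences, the most abundant, those nearest the limits, neighbours within 20 kb, members of the lists and the largest called values; the rest of the 40, the pathway lists and their genes, overlapping genes and families with 1 of the 40 were added after their values were seen. The planned search of promoters for motifs was not run, since promoter sequences were not used here.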

Additional observations from a re-analysis of the deposited data

Results flagged for a closer look

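In 9 of the 40 genes the difference with the spr label was not the same with and without the daf-2 label, by the interaction test of edgeR with adjusted p below 0.05 (28.7% of all genes tested passed it). The share called among the 40 was below that of all genes tested, so the count is not particular to the 40. Both parts of this difference entered the choice of genes. The spr-3 level was also higher in the triple-labelled libraries than in the spr double mutant, so it cannot be told apart from the daf-2 label. The interaction was -1.42 for srh-237, -0.90 for cpr-4, -0.85 for T05E12.6, -0.80 for pmp-5, -0.70 for igcm-4, -0.61 for ugt-63 and -0.55 for T05A12.4, all more lowered in daf-2 animals. It was 0.79 for asm-3 and 0.44 for mop-25.3, which were less lowered there. Over 19 alternatives, 7 of the 9 were called under each, and the exceptions were pmp-5 and T05E12.6.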

How the results depend on the processing

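The number of genes that met the rule depended on its limits: 62 with a limit of -0.5 on both spr differences, 14 with -0.8, 26 with a daf-2 limit of 0.3 and 24 with a minimum of 5 CPM in N2, against 40. It was 35 with TMM-scaled CPM (34 shared with the 40), 31 with a pseudocount of 1 and 44 with 0.1. Leaving out single libraries gave 29 to 48 genes. The lowest came without daf-2 replicate 3, and 24 of the 40 were kept in all 12 such settings, while hphd-1 was kept in 10 and nhr-68 in 9. All 40 stayed called lower in both spr comparisons under every alternative run. Since the rule chose them by these differences in the same libraries, this is a description and not a test. Calls between the triple-labelled libraries and the spr double mutant numbered 14 to 22 over the alternatives, against 20, and interaction calls 7 to 11, against 9. With total counts as the scaling the interaction of pmp-5 (edgeR adjusted p = 0.0504) and T05E12.6 (edgeR adjusted p = 0.0555) was not called. Replicate numbers were treated as names and not as a pairing, since the labels do not say that they mark shared cultures. Libraries that share a replicate number showed residual correlations of -0.21 to 0.11 in 18 pairs (median 0.00). With the replicate block, 40 genes were lower in each spr comparison, 20 were called between the triple-labelled libraries and the spr double mutant and 7 in the interaction. Of the 40 genes, 24 had under 10 CPM in N2, where counting error limits single values most.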

Other observations

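Within groups, the 40 genes tended to be high or low in the same libraries, a pattern looked at after the data were seen. It is not independent of the rule, since the same libraries set the means that chose the genes, and without daf-2 replicate 3 the rule gave 29 genes. Around the group means of log2(CPM + 0.5), the mean pairwise correlation over the 12 libraries was 0.23 among the 40 genes and 0.03 among the 15764 genes tested; the points share library and depth. Without the daf-2 libraries it was 0.11 among the 40 and 0.02 among all genes. daf-2 replicate 3 held the highest daf-2 value in 31 of the 40 genes (77.5%), beside 47.1% of the genes tested. N2 replicate 3 held the lowest N2 value in 24 of the 40 (60%), beside 42.7% of the genes tested. hphd-1, pmp-5, T05E12.6 and acdh-1 each had their highest daf-2 and lowest N2 value in those libraries.

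The sizes of both spr differences were loosely related across the 40 genes, which the limits of the rule constrain and which are not independent replicates (Pearson r = 0.30, Spearman rho = 0.27).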
